A study of Drosophila melanogaster with 9 samples.

Results

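The UDP-glycosyltransferase (Ugt) genes of Drosophila melanogaster were followed in RNA sequencing of dissected adult female midguts. Members were all gene identifiers of the count tables whose FlyBase symbol starts with Ugt followed by a digit, which gave 35 of 15682 identifiers. UDP-glycosyltransferases are membrane-bound enzymes of the endoplasmic reticulum that transfer a sugar from a UDP-sugar, in insects mostly UDP-glucose, onto small lipophilic molecules. The sugar makes the molecule more soluble in water, so that it can be exported from the cell and excreted. In flies the family is known for the clearance of plant toxins and insecticides in the gut, fat body and Malpighian tubules, and some members act in olfactory tissue.

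The 9 libraries formed 3 groups of 3, each library from a pool of 30 midguts of virgin females of w1118 background whose age is labelled as 15 days. Control females are labelled wild type, and mutant females carry mutant transformer (tra), a gene that directs female splicing and sexual identity in somatic cells. Rescue females are tra mutants with esg>traF, which supplies the female tra form from a driver active in intestinal stem cells and their direct progeny. Flies of all groups were kept for 3 days at 18 °C and then for 10 days at 29 °C to induce the transgene, so control and mutant flies had the same temperature shift. The tra alleles, and whether control and mutant flies carried a driver, are not given in the sources used here. The rescue acts from progenitor cells, while the whole midgut was sequenced, and in such bulk samples fewer cells of a type and less RNA per cell cannot be told apart. Separate cultures or crosses are not stated for the replicates, and p-values then measure only the spread between these libraries, some of it perhaps technical.

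Between 84839470 and 108455374 reads or read pairs were counted in genes per library. The targeted gene tra had 821, 650 and 742 counts across controls, 1, 2 and 1 across mutants, and 756, 472 and 294 across rescue libraries. On the first principal component, with 38.6% of the variance, control replicate 3 lay at -64.2 and the other controls at -34.6 and -34.5, while mutant and rescue libraries were above 0. All 8 enterocyte markers were tested, with summed levels of 36595 to 63713 CPM, counts per 1000000 gene counts, in control, 49375 to 60921 in the mutant and 44289 to 55275 in the rescue. Markers of other cell types and tissues summed to lower levels, and none of those listed was at 0 in all 9 libraries. The 9 Malpighian tubule markers analysed summed to 119 to 159.7 CPM in control libraries, 159.6 to 177 in mutant and 161 to 171 in rescue libraries. The 10 fat body markers summed to 162 to 231, 139.8 to 168 and 142 to 177 CPM in the same groups, and of the 9 tested 4 fell in mutant and 3 in rescue against control. The 4 haemocyte markers summed to 92.0 to 166, 38.6 to 41.7 and 37.1 to 80.8 CPM, and 1 of them fell in each of these comparisons. Trachea markers summed to 28.9 to 37.7, 22.9 to 23.3 and 19.4 to 23.0 CPM, and 2 of 4 fell both in mutant and in rescue against control. Visceral muscle markers summed to 1756 to 2176, 1131 to 1473 and 1177 to 1742 CPM, and none of the 6 was called in any comparison. Hindgut markers summed to 26.9 to 47.8, 51.3 to 62.9 and 52.3 to 63.9 CPM, with neither of the 2 tested called. Enteroendocrine markers summed to 329 to 393, 454 to 506 and 465 to 579 CPM, and 1 of 6 rose in mutant and 4 of 6 in rescue against control. The 4 progenitor markers analysed summed to 63.4 to 101, 66.4 to 90.9 and 71.0 to 90.2 CPM, and none was called in any comparison. Beside these counts, 3.66% of all tested genes were called higher and 3.01% lower in mutant against control, and 4.79% and 4.65% in rescue against control. The part of these cells and tissues in the Ugt values below was not tested.

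Most Ugt genes lie next to other Ugt genes. By the gene order of the reference annotation, 23 of the 35 fell into 6 clusters in which at most 3 other genes separate neighbours, and 12 stood alone. The cluster with most members holds 10 genes on arm 3R and 3 other genes between them: Ugt35C1, Ugt302K1, Ugt302E1, Ugt302C1, Ugt35E1, Ugt35E2, Ugt35B1, Ugt35A1, Ugt304A1 and Ugt303A1, in this order. RefSeq lists older names of the series Ugt86D for these genes. The other clusters had no other gene between neighbours. They were Ugt37C2, Ugt37E1 and Ugt37D1 on 2L, Ugt36F1, Ugt36D1 and Ugt36E1 on 2L, Ugt49B1 and Ugt49C1 on 2R, Ugt37A2 and Ugt37A3 on 3R, and Ugt303B3, Ugt303B1 and Ugt303B2 on 3R.

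The family as a whole accounted for 0.223% of gene counts in control, 0.293% in the mutant and 0.269% in the rescue. Summed over the 35 genes, levels were 2519.9, 2499.8 and 1783 CPM in the control libraries, 2737, 3261 and 2846 in the mutant libraries and 2624, 2742 and 2592 in the rescue libraries. Every mutant and rescue library was above every control library in this sum, and control replicate 3 was the lowest. The 4 genes of highest CPM, Ugt35C1, Ugt302C1, Ugt37D1 and Ugt303B3, made up 50.3% of the summed level over all libraries, and the 10 highest 85.1%.

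Levels per kilobase of annotated exon, which allow genes to be compared, spanned more than 3 orders of magnitude among the 31 genes that were tested. Ugt35C1 (FBgn0040256, 3R), known as Ugt86Dd for its part in larval nicotine resistance, was the highest with a mean of 279 CPM per kilobase over the 9 libraries. It was followed by Ugt302C1 (164), Ugt37D1 (146), Ugt303B3 (136) and Ugt49B1 (124), the other genes with more than 100 CPM per kilobase. In all, 17 genes exceeded 10 CPM per kilobase and 26 exceeded 1. Among the lowest tested genes were Ugt302K1 (0.427), Ugt35B1 (0.273), Ugt50B3 (0.205) and Ugt35E2 (0.0892). Ugt35B1, described in the antenna under the name Ugt35b, and Ugt36E1, known from olfactory neurons (1.0 CPM per kilobase), were thus near the bottom of the order, while Ugt36A1, known as Dorothy from pericardial cells, held a middle place with 16.2. In each of the 34 pairs of neighbours in the order of all 35 genes the ranges over the 9 libraries overlapped, so the order of adjacent genes is not resolved.

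**Figure D1:**
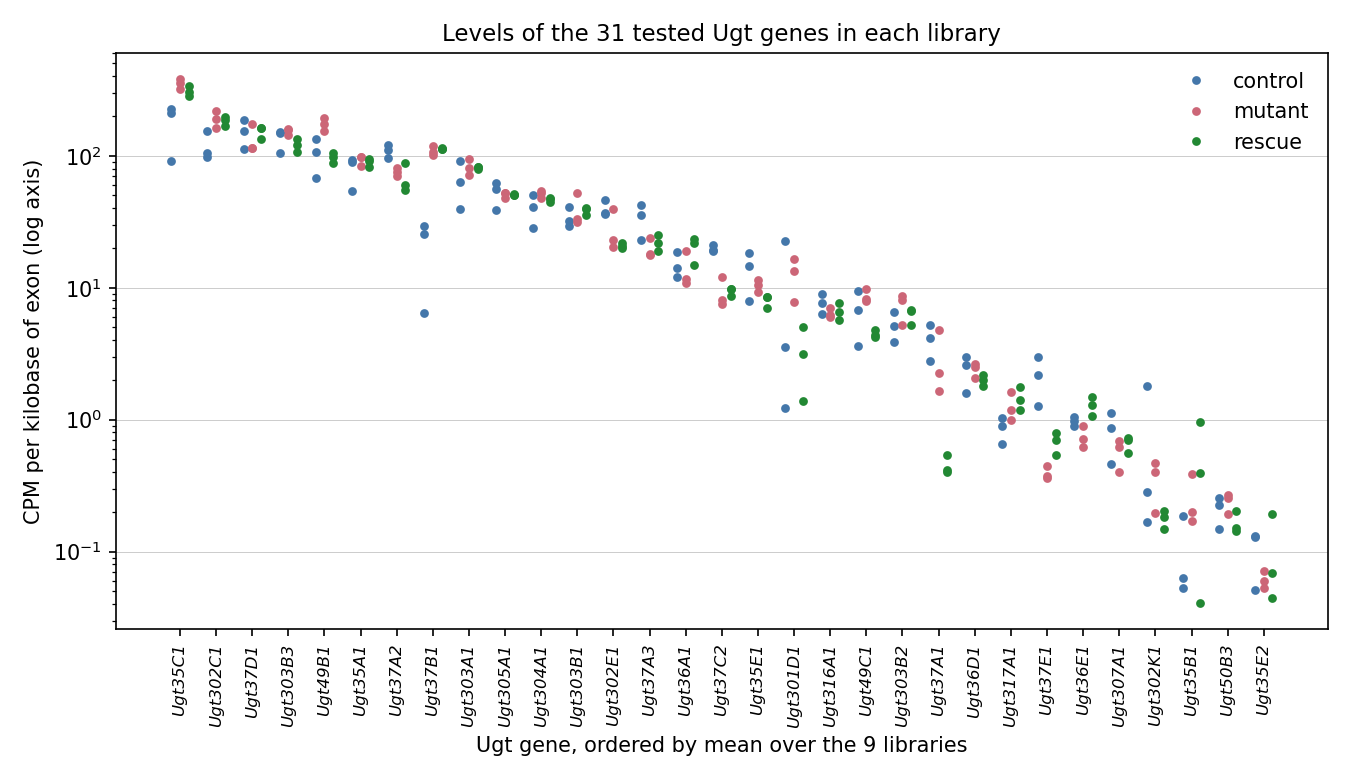
Level of each of the 31 tested Ugt genes in each library, in CPM per kilobase of annotated exon on a log axis, with genes ordered by their mean over the 9 libraries and points coloured by group. Ugt35C1 leads with a mean of 279 CPM per kilobase and Ugt35E2 closes the order with 0.0892.

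The 4 genes left out by the filter on low counts were close to or at 0. Ugt36F1 had 12, 9 and 4 counts in the control libraries, 13, 3 and 7 in the mutant libraries and 2, 1 and 2 in the rescue libraries. Ugt37C1 had 3, 1 and 0 counts for control, 0, 0 and 3 for the mutant and 2, 0 and 6 for the rescue. Ugt35D1 had counts in 2 libraries only, 2 and 4 in mutant replicates 2 and 3, and Ugt49B2 had none in any library. With the smallest total, that of rescue replicate 2, a gene listed at 0 may still have a level of 3 counts or 0.0360 CPM. Ugt36F1 is the only one of these 4 in a cluster, and its neighbour Ugt36D1 measured 5.43 ± 1.63 CPM (mean ± SD, n = 3) in control.

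The 10 genes on 3R shared a neighbourhood but not a level. Ugt35C1 at the outer end of the cluster and Ugt302C1 within it were high, as were Ugt35A1, Ugt304A1 and Ugt303A1, while Ugt35E2 and Ugt35B1, which lie side by side between Ugt35E1 and Ugt35A1, were below 2 CPM in every library. Ugt35A1 (FBgn0026315) measured 164, 159 and 96.1 CPM in replicates 1 to 3 of the control, 173, 148 and 174 in those of the mutant and 168, 161 and 147 in those of the rescue. Ugt303A1 (FBgn0040252) measured 186, 128 and 80.3 CPM in the control libraries, 145, 190.4 and 164 in the mutant libraries and 161, 165 and 168 in the rescue libraries. For both genes the control range covered or nearly covered the other groups, with the lowest value in control replicate 3. Control replicate 3 was the lowest control library for 8 of the 10 genes of the cluster and for 22 of the 31 tested Ugt genes (71.0%), against 39.4% of all tested genes.

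**Figure D2:**
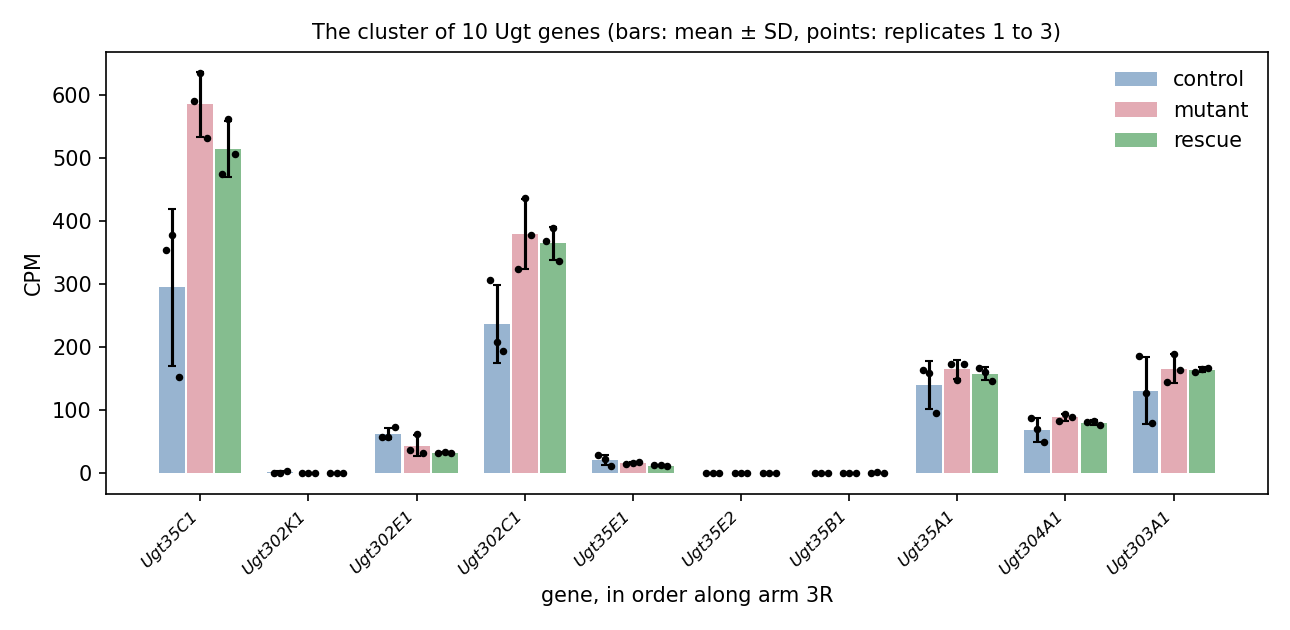
CPM of the 10 clustered Ugt genes in their order along arm 3R, with bars for the group mean, error bars for the SD (n = 3) and points for replicates 1 to 3. Ugt35C1 and Ugt302C1 are the highest genes, and the control libraries of Ugt35C1 range from 153 to 378 CPM.

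The comparison of mutant with control addressed the loss of tra. Ugt37B1 rose and Ugt37C2 and Ugt37E1 fell, and the other 28 tested Ugt genes did not pass the threshold (edgeR quasi-likelihood test, Benjamini-Hochberg adjusted p under 0.05 over all 10088 tested genes). The background was 3.66% of all tested genes higher and 3.01% lower, or 6.67% in either direction, against 1 and 2 of 31 Ugt genes, or 9.68%. The median log2 fold change of the 31 genes was 0.01, beside -0.03 for all tested genes, and the median size of the change without its sign was 0.48 beside 0.25. Without mutant replicate 1, 2 or 3 the number of genes called over the whole table dropped from 673 to 329, 336 and 350.

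Ugt37B1 (FBgn0026755, a gene standing alone on 2L) measured 51.0, 44.1 and 11.2 CPM across control replicates 1 to 3, 176, 208 and 187 across mutant replicates and 197, 195 and 198 across rescue replicates. Every mutant and rescue library was at more than 3 times the highest control library, and the groups did not overlap. Its log2 fold change in mutant against control was 2.43 ± 0.44 (SE), a 5.38-fold increase (edgeR adjusted p = 0.0113). Without control replicate 3, which held the lowest value, it was 2.01 (edgeR adjusted p = 8.64e-05, with 3.56e-08 to 0.0421 over all alternatives).

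Ugt37C2 and Ugt37E1 are neighbours in the 2L cluster, with Ugt37D1 beside them. Ugt37C2 (FBgn0040262) measured 37.7, 34.9 and 34.2 CPM in replicates 1 to 3 of the control, 13.5, 21.6 and 14.6 in those of the mutant and 17.5, 17.6 and 15.7 in those of the rescue, and the lowest control library was above the highest mutant or rescue library. Its log2 fold change in the mutant, -1.11 ± 0.17, was a fall past the threshold (edgeR adjusted p = 0.00527). Ugt37E1 (FBgn0040261) measured 4.85, 3.55 and 2.07 CPM in the control libraries, 0.591, 0.724 and 0.602 in the mutant libraries and 1.14, 1.29 and 0.869 in the rescue libraries, with no overlap between any of the groups. In the mutant it also fell (log2 fold change -2.45 ± 0.33, edgeR adjusted p = 0.00294). Ugt37D1 (FBgn0040260), the most abundant of the 3, measured 301, 362 and 219 CPM across control replicates 1 to 3, 224, 338 and 224 across mutant replicates and 261, 319.6 and 319 across rescue replicates. These ranges overlapped, with a log2 fold change of -0.17 ± 0.22 in mutant against control (edgeR adjusted p = 0.681).

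The 3 calls were kept in each of the 18 alternative fits. Further Ugt genes were called in some of them, which brought the calls to 4 higher and 3 lower with DESeq2 (21.9%, beside 13.1% of all genes with an adjusted p) and to 2 higher and 4 lower without control replicate 3. Among these was Ugt35C1, with 355, 378 and 153 CPM in replicates 1 to 3 of the control, 591, 635 and 533 in those of the mutant and 475, 563 and 506 in those of the rescue. All mutant and rescue libraries of Ugt35C1 were above all control libraries, but the control libraries themselves differed more than 2-fold. Its log2 fold change of 0.99 ± 0.29 did not pass (edgeR adjusted p = 0.0711), while with the replicate number as a block it was 1.05 and passed (edgeR adjusted p = 0.0473, with 0.00675 to 0.169 over all alternatives). With the block and only the 6 libraries compared it did not pass (edgeR adjusted p = 0.0794). Ugt302C1 (FBgn0040259) measured 308, 209 and 194 CPM in the control libraries, 325, 437 and 378 in the mutant libraries and 369, 389 and 338 in the rescue libraries, again without overlap of control with the other groups. Its log2 fold change was 0.68 ± 0.19 (edgeR adjusted p = 0.0663). Groups without overlap were seen for 7 of the 31 Ugt genes, 4 higher and 3 lower in the mutant, and for 25.6% of all tested genes, 12.7% higher and 12.9% lower.

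**Figure D3:**
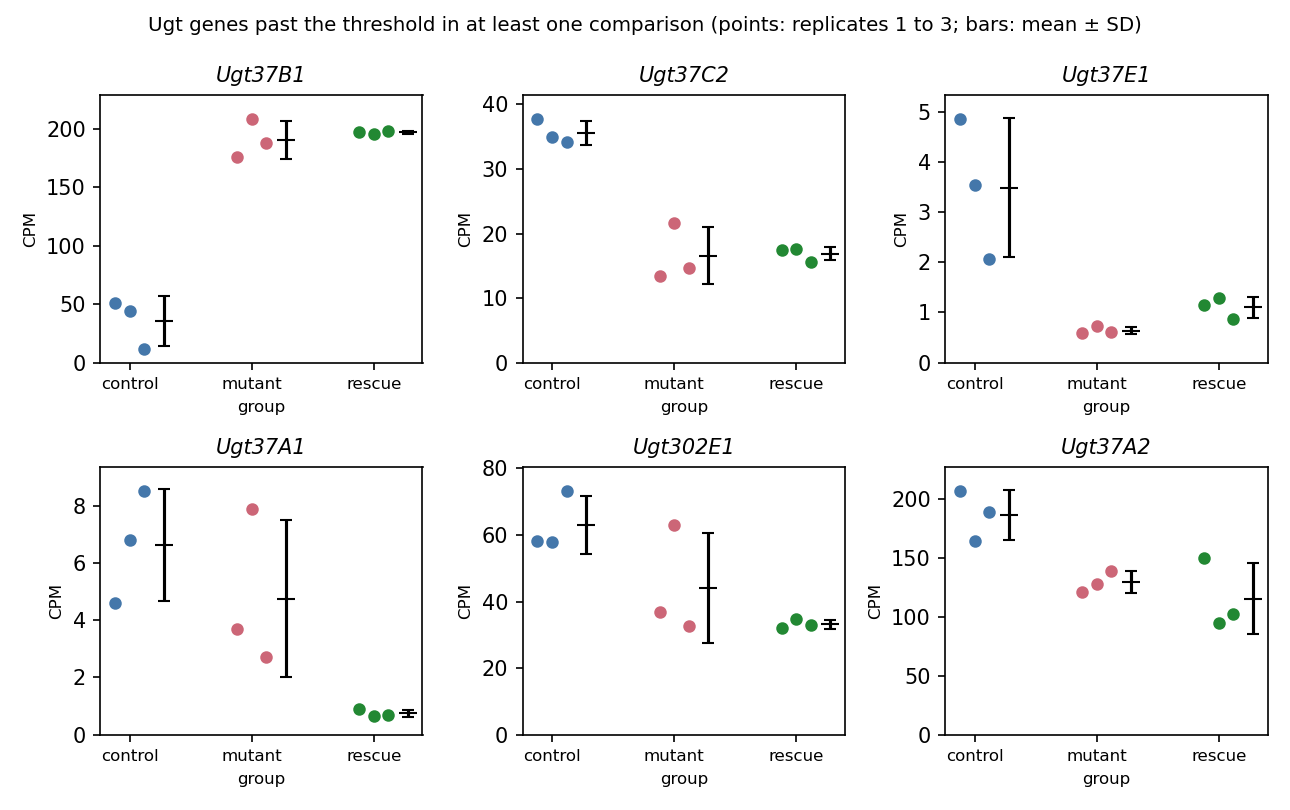
CPM of the 6 Ugt genes that passed the threshold in at least 1 comparison, with points for replicates 1 to 3 of each group and bars for the mean ± SD. Ugt37B1 is high in all mutant and rescue libraries (176 CPM or more), whereas Ugt37A1 is low only in the rescue libraries (0.893 CPM or less).

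Rescue and mutant libraries were compared to look for effects of tra given back in progenitor cells. Ugt37A1 fell, which made 1 lower and 0 higher of 31 Ugt genes, against 0.278% lower and 0.188% higher (0.466% in all) of the tested genes. At an unadjusted p under 0.05, 5 of the 31 passed (16.1%), beside 5.07% of all tested genes. With DESeq2 2 Ugt genes were lower and 0 higher, or 5.88% of those with an adjusted p, beside 1.01% of all genes with one. Ugt37A1 (FBgn0026756, standing alone on 2L) measured 4.59, 6.81 and 8.50 CPM across control replicates 1 to 3, 3.69, 7.88 and 2.70 across mutant replicates and 0.893, 0.659 and 0.683 across rescue replicates. The control and mutant libraries overlapped, and all rescue libraries lay below them. The log2 fold change was -2.67 ± 0.41 in rescue against mutant (edgeR adjusted p = 0.0272) and -0.48 ± 0.38 in mutant against control (edgeR adjusted p = 0.467). The call held in 12 of 18 alternatives, and of single libraries left out, it was lost without control replicate 2, mutant replicate 1 or any 1 of the 3 rescue libraries. Over all alternatives the log2 fold change was -2.94 to -2.09 and the edgeR or DESeq2 adjusted p 4.61e-09 to 0.152. Over the whole table, the 47 genes called became 21 to 23 without any 1 mutant or rescue library and 71 without control replicate 3.

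None of the 3 Ugt genes that differed between mutant and control passed in rescue against mutant. For Ugt37B1 the log2 fold change was 0.05 ± 0.42 and for Ugt37C2 0.03 ± 0.17 (edgeR adjusted p = 0.999 for each). Ugt37E1 was higher in every rescue library than in every mutant library, with 0.78 ± 0.32 (edgeR adjusted p = 0.886), and its rescue mean of 1.10 ± 0.216 CPM (SD, n = 3) stayed below the control mean of 3.49 ± 1.39 CPM.

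The neighbours Ugt49B1 and Ugt49C1 on 2R had their highest mean levels in the mutant. Ugt49B1 (FBgn0027073) measured 187, 234 and 119 CPM in replicates 1 to 3 of the control, 269, 336 and 307 in those of the mutant and 154, 183 and 172 in those of the rescue. Its mutant libraries were above all others, and its rescue libraries lay within the control range. Ugt49C1 (FBgn0034605) measured 12.9, 17.9 and 6.83 CPM in the control libraries, 15.5, 18.7 and 15.1 in the mutant libraries and 8.27, 8.09 and 9.06 in the rescue libraries, with all mutant libraries above all rescue libraries and a control range that reached from below the rescue to within the mutant range. In rescue against mutant the log2 fold changes were -0.84 ± 0.22 and -0.95 ± 0.28, which did not pass (edgeR adjusted p = 0.327 and 0.456). Both passed without control replicate 3 (edgeR adjusted p = 0.0356 and 0.0275) and in the fit to the 6 libraries compared. Over the alternatives the adjusted p ranged from 0.0274 to 0.863 for Ugt49B1 and from 0.00969 to 1 for Ugt49C1 with edgeR or DESeq2. Ugt49B1 overlaps CG44245 on the other strand, and the strand setting of the counting is not given in the sources used here. The groups did not overlap for 9 of the 31 Ugt genes in this comparison, of which 7 were lower in the rescue and 2 were higher, against 12.2% of all tested genes without overlap, 6.84% lower and 5.32% higher.

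The comparison of rescue with control, which shares its control libraries with the first comparison and its rescue libraries with the second, called 6 Ugt genes. Ugt37B1 rose and Ugt37C2, Ugt37E1, Ugt37A1, Ugt302E1 and Ugt37A2 fell, or 19.4% of 31, beside a background of 9.44% of all tested genes, with 4.79% higher and 4.65% lower. With DESeq2 4 Ugt genes were higher and 7 lower, or 34.4%, beside 15.5% of all genes with an adjusted p. Over the whole table, the 952 genes called dropped to 460, 428 and 360 without rescue replicates 1, 2 and 3. The log2 fold change was 2.47 ± 0.44 for Ugt37B1 (edgeR adjusted p = 0.00937), -1.08 ± 0.17 for Ugt37C2 (edgeR adjusted p = 0.00501) and -3.15 ± 0.42 for Ugt37A1 (edgeR adjusted p = 0.00229). These 3 calls were kept in all 18 alternative fits. Ugt37E1 measured -1.66 ± 0.32 (edgeR adjusted p = 0.0134) and was lost without rescue replicate 1 or 3, with edgeR or DESeq2 adjusted p of 1.16e-05 to 0.0601 over the alternatives.

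The other calls of this comparison were closer to the threshold. Ugt302E1 (FBgn0040257), in the cluster of 10, measured 58.2, 57.8 and 73.1 CPM across control replicates 1 to 3, 36.9, 63.0 and 32.6 across mutant replicates and 31.9, 34.7 and 32.8 across rescue replicates. All rescue libraries were below all control libraries, while mutant replicate 2 lay among the controls. Its log2 fold change was -0.93 ± 0.22 (edgeR adjusted p = 0.0320), and it no longer passed when control replicate 3 or any 1 rescue library was left out (edgeR or DESeq2 adjusted p of 0.00308 to 0.109 over the alternatives). Ugt302E1 lies next to Ugt302C1, whose levels were higher in rescue than in control libraries (0.62 ± 0.19, edgeR adjusted p = 0.0723). Ugt37A2 (FBgn0038082) measured 206, 164 and 189 CPM in replicates 1 to 3 of the control, 121, 128 and 139 in those of the mutant and 149.9, 94.3 and 102 in those of the rescue. Its control libraries were above all others, and the log2 fold change was -0.69 ± 0.18 (edgeR adjusted p = 0.0423). It did not pass with library totals alone, with only the 6 libraries compared, or without any 1 library other than control replicate 2 and rescue replicate 1 (edgeR or DESeq2 adjusted p of 0.00593 to 0.154 over the alternatives). Its neighbour Ugt37A3 (FBgn0038083) measured 58.9, 70.4 and 38.1 CPM in the control libraries, 29.4, 29.9 and 39.6 in the mutant libraries and 41.6, 36.1 and 31.5 in the rescue libraries, and overlapped between groups. It did not pass in mutant against control (-0.76 ± 0.22, edgeR adjusted p = 0.0693) or rescue against control (-0.62 ± 0.22, edgeR adjusted p = 0.106), while without control replicate 3 the edgeR adjusted p was 0.0115 and 0.0213. The groups did not overlap for 10 of the 31 Ugt genes, 5 higher and 5 lower in the rescue, and for 31.4% of all tested genes, 15.6% higher and 15.8% lower.

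**Figure D4:**
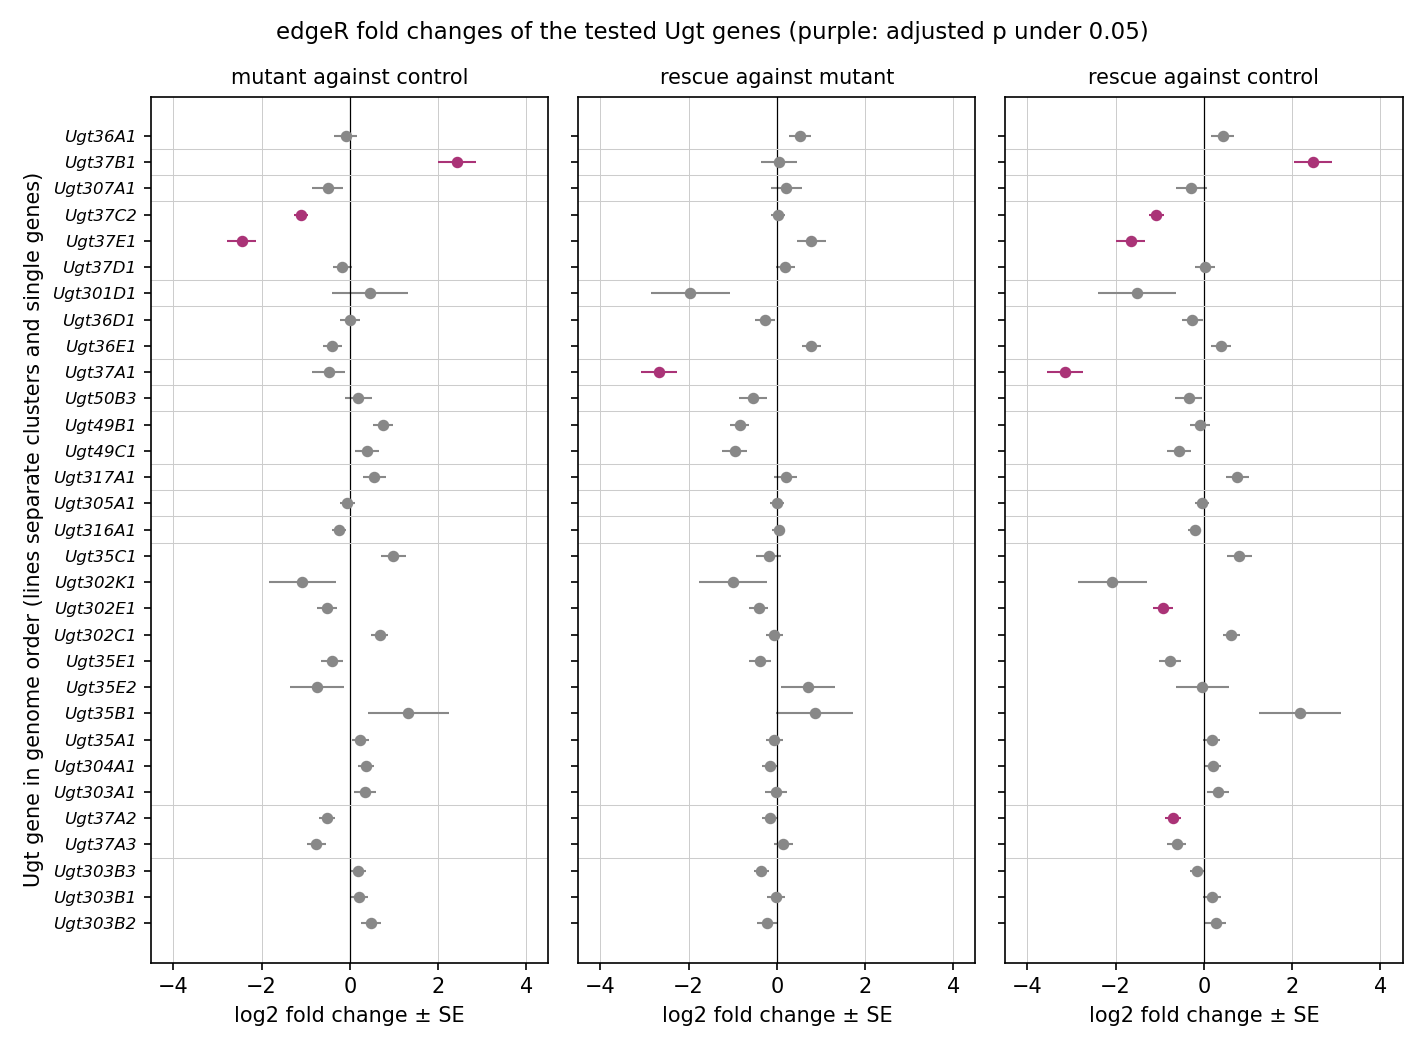
Log2 fold changes ± SE of the 31 tested Ugt genes in the 3 comparisons, in genome order, with edgeR adjusted p under 0.05 in purple and lines between clusters and genes standing alone. Calls fell on 3 genes in mutant against control, on Ugt37A1 in rescue against mutant and on 6 genes in rescue against control.

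Of the 31 tested Ugt genes, 6 (19.4%) were called in at least 1 comparison, beside 11.1% of all tested genes, and 5 of these 6 belong to subfamily 37. That subfamily has 8 members, of which Ugt37D1, Ugt37A3 and Ugt37C1 were not called. In the 7 tested members the log2 fold change of mutant against control ranged from -2.45 to 2.43 with a median of -0.53, and 6 of 7 were negative, beside 53.5% of all tested genes. The summed CPM of subfamily 37 was 665, 686 and 502 for control libraries, 568, 734 and 608 for mutant libraries and 668, 664 and 668 for rescue libraries, with overlapping groups. The 4 tested genes of subfamily 303, in 2 clusters on 3R, stayed between 0.19 and 0.48 in the same comparison and none was called. Ugt303B3 (FBgn0039085), the most abundant of them, measured 265, 264 and 184 CPM across control replicates 1 to 3, 253, 283 and 278 across mutant replicates and 238, 214 and 187 across rescue replicates. Ugt305A1 (FBgn0042179, 3L), another abundant gene, measured 76.8, 111 and 122 CPM in replicates 1 to 3 of the control, 103, 102 and 93.8 in those of the mutant and 98.9, 99.2 and 101 in those of the rescue, and the control range covered both other groups.

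Summed by cluster, the groups separated for some clusters and not for others. The 10 genes on 3R summed to 1189.7, 1027 and 663 CPM in the control libraries, 1372, 1586 and 1391 in the mutant libraries and 1300.4, 1413 and 1281 in the rescue libraries, or 42.3%, 49.2% and 50.2% of the summed level of the family. Ugt37A2 and Ugt37A3 summed to 265, 234 and 227 CPM across control replicates 1 to 3, 150.5, 158 and 179 across mutant replicates and 191, 130.3 and 133 across rescue replicates, so that control was highest here. Ugt49B1 and Ugt49C1 summed to 200.3, 252 and 126 CPM in replicates 1 to 3 of the control, 284, 355 and 322 in those of the mutant and 163, 191 and 181 in those of the rescue, with the mutant alone set apart. In the 2L cluster of Ugt37C2 the sum followed Ugt37D1 and overlapped between groups, although Ugt37C2 and Ugt37E1 fell. The cluster of Ugt36D1 overlapped between groups as well. The 3 genes from Ugt303B3 to Ugt303B2 summed to 326, 348 and 247 CPM in the control libraries, 326, 391 and 342 in the mutant libraries and 321, 285 and 269 in the rescue libraries, with all rescue libraries below all mutant libraries and the control range overlapping both. These sums are descriptions and were not tested.

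**Figure D5:**
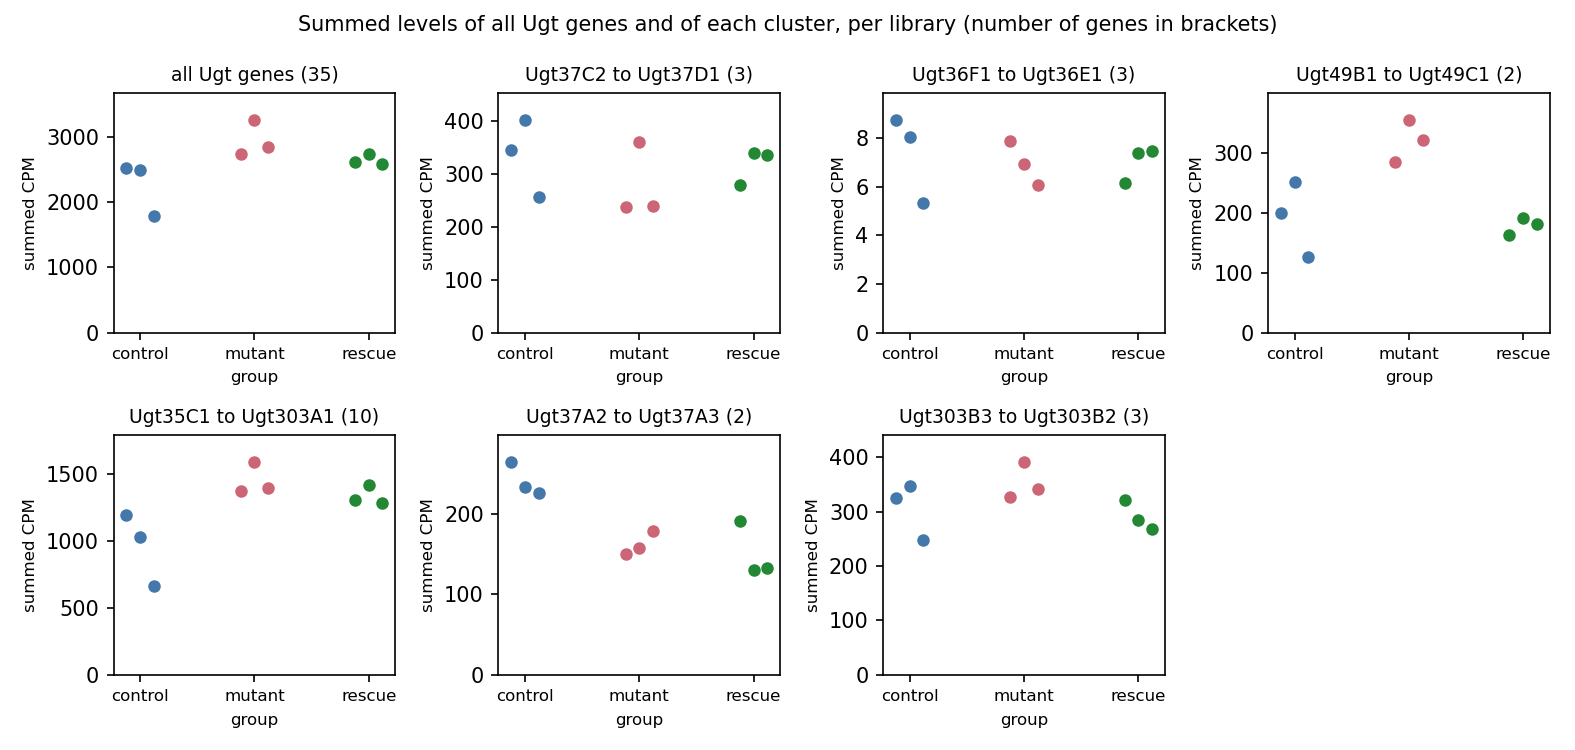
Summed CPM of all 35 Ugt genes and of each of the 6 clusters in each library, with points for replicates 1 to 3 of each group and the number of genes in brackets. In the cluster of 10 the control libraries lie at 1189.7, 1027 and 663 CPM, below all mutant and rescue libraries.

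A few members varied widely between the control libraries. Ugt301D1 (FBgn0032684, 2L) measured 2.44, 7.05 and 44.9 CPM across control replicates 1 to 3, 26.5, 15.5 and 32.6 across mutant replicates and 10.1, 6.26 and 2.73 across rescue replicates. Control replicate 3 was above all mutant and rescue libraries, while control replicates 1 and 2 were within or below the rescue range. All mutant libraries of Ugt301D1 were above all its rescue libraries. The log2 fold change in rescue against mutant was -1.96 ± 0.89 (edgeR adjusted p = 0.999). It was -2.46 to -1.60 over the alternatives and passed in none of them. In mutant against control the log2 fold change of Ugt301D1 was 0.45 ± 0.86 (edgeR adjusted p = 0.785) and 2.40 without control replicate 3 (edgeR adjusted p = 0.0510, with 0.0510 to 0.972 over the alternatives). Ugt302K1 (FBgn0040251) likewise stood at 4.59 CPM in control replicate 3 and at 1.20 CPM or less in the other 8 libraries. Over the tested Ugt genes the median coefficient of variation was 27.8% in control, 15.3% in the mutant and 12% in the rescue, beside 18.5%, 13.4% and 11.3% for all tested genes.

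Ugt35B1 (FBgn0026314) was low and uneven, with 0.312, 0.106 and 0.0892 CPM in replicates 1 to 3 of the control, 0.285, 0.651 and 0.335 in those of the mutant and 0.0687, 1.59 and 0.660 in those of the rescue. Its highest library was rescue replicate 2 and its lowest rescue replicate 1. Among the rescue libraries, 6 of the 9 Malpighian tubule markers were lowest in replicate 1, beside 36.7% of all tested genes. Of the 9 markers 3 were highest in replicate 2, beside 31.6% of all tested genes. The summed level of the markers was 161, 171 and 171 CPM. Oatp58Dc, an organic anion transporter gene and 1 of the 6 lowest in replicate 1, measured 0.0429, 0.911 and 1.86 CPM. Its highest library was thus rescue replicate 3, unlike that of Ugt35B1. The urate oxidase gene Uro, a defining tubule marker, was at 0.492 CPM in rescue replicate 2 and at 0 in rescue replicates 1 and 3. Oatp58Dc and Uro are single markers of the 9, named after their values were seen, and both were low beside the summed level. The part of tubule tissue in the Ugt35B1 values was not tested. The log2 fold change of Ugt35B1 in rescue against control was 2.18 ± 0.92 and did not pass (edgeR adjusted p = 0.161).

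The remaining tested genes showed smaller differences. Among the 28 Ugt genes not called in mutant against control, log2 fold changes ran from -1.08 for Ugt302K1 to 1.32 for Ugt35B1, both low genes. Ugt36E1, known from pheromone sensing by males, measured 1.87, 2.01 and 1.70 CPM in the control libraries, 1.71, 1.19 and 1.35 in the mutant libraries and 2.03, 2.84 and 2.46 in the rescue libraries. Its rescue libraries were above all others, but the difference from the mutant did not pass (0.78 ± 0.22, edgeR adjusted p = 0.422). Ugt317A1 on 2R was higher in every rescue than in every control library (0.76 ± 0.27, edgeR adjusted p = 0.104), with 1.66, 1.93 and 1.22 CPM across control replicates 1 to 3, 3.01, 1.86 and 2.20 across mutant replicates and 2.21, 3.31 and 2.63 across rescue replicates. Ugt35E1 in the cluster of 10 measured 29.0, 23.2 and 12.5 CPM in replicates 1 to 3 of the control, 14.7, 16.6 and 18.0 in those of the mutant and 13.4, 13.4 and 11.2 in those of the rescue. Its rescue libraries were below all mutant libraries, while control replicate 3 lay among the rescue libraries, so that rescue and control overlapped (-0.77 ± 0.25, edgeR adjusted p = 0.0836). Ugt304A1, close by, measured 88.1, 71.0 and 49.5 CPM in the control libraries, 83.7, 94.2 and 90.2 in the mutant libraries and 81.7, 83.6 and 77.0 in the rescue libraries, with the rescue just below the mutant and inside the control range.

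Ugt36A1 measured 27.5, 32.2 and 42.8 CPM across control replicates 1 to 3, 24.95, 44.0 and 26.9 across mutant replicates and 34.2, 50.3 and 53.5 across rescue replicates, and Ugt316A1 on 3L stayed between 17.9 and 28.1 CPM over all libraries. Both overlapped between groups, as did Ugt303B1, Ugt303B2, Ugt36D1, Ugt307A1, Ugt50B3 and Ugt35E2 in mutant against control. Ugt303B1 was the highest of these 6, at 51.3 to 92.2 CPM. Like Ugt49B1, the genes Ugt36A1, Ugt307A1, Ugt36E1 and Ugt50B3 overlap a gene on the other strand, whereas none of the 6 called genes overlaps another gene.

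Genes of UDP-sugar supply and transport, with genes of galactose use among them, were looked at beside the family. Of the 12 tested genes, 4 rose and 0 fell in mutant against control, beside 3.66% higher and 3.01% lower of all tested genes. In rescue against mutant 0 were called, beside 0.466% of all tested genes. In rescue against control 3 rose, beside 4.79% of all tested genes. The listed gene frc was at 0 in every library and was not tested. As the strand setting and overlap mode of counting are not given, this 0 does not show that frc was not expressed. The median log2 fold change of the tested genes of this list in mutant against control was 0.17, beside -0.03 for all tested genes. UGP, which encodes the enzyme that makes UDP-glucose from UTP and glucose 1-phosphate, measured 42.2, 50.4 and 40.8 CPM in replicates 1 to 3 of the control, 61.0, 88.5 and 64.8 in those of the mutant and 69.3, 74.4 and 75.7 in those of the rescue. The control libraries of UGP lay below all others, with a log2 fold change of 0.68 ± 0.15 in mutant against control (edgeR adjusted p = 0.0286). Pgm1, a phosphoglucomutase (0.78 ± 0.20, edgeR adjusted p = 0.0470), Galt, a uridylyltransferase of galactose use (0.73 ± 0.14, edgeR adjusted p = 0.0125), and Galk, a galactokinase (0.63 ± 0.14, edgeR adjusted p = 0.0253), rose as well. Leaving out control replicate 2 or 3, any mutant library, or rescue replicate 2 or 3 left 1 or 2 calls in mutant against control, and leaving out any rescue library left 0 or 1 in rescue against control. Fitting 6 libraries alone gave 1 call in each of these comparisons, and 0 in mutant against control when the replicate block was added. sgl, which encodes the dehydrogenase that turns UDP-glucose into UDP-glucuronate, measured -0.02 ± 0.14 (edgeR adjusted p = 0.940).

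Of the other detoxification families, cytochrome P450 and glutathione transferase genes had calls in both directions against control. The background over all tested genes was 3.66% higher and 3.01% lower in mutant against control. It was 0.188% and 0.278% in rescue against mutant, and 4.79% and 4.65% in rescue against control. Of 76 tested genes with a symbol of Cyp and a digit, nearly all of them cytochrome P450 genes, 12 rose and 3 fell in mutant against control. P450 genes encode oxidases acting before conjugation. In rescue against mutant 2 of the 76 rose and 3 fell, and in rescue against control 10 rose and 7 fell. Cyp1 and Cyp40 in this list encode cyclophilins and not P450 enzymes, and Cyp6a15Psi and Cyp6t2Psi are named as pseudogenes. None of these named genes was called in the 3 comparisons. In mutant against control 8 and 9 of the Cyp genes were called without mutant replicates 1 and 2. Without any 1 mutant or rescue library, 1 or 2 were called in rescue against mutant. In rescue against control 10 and 11 were called without rescue replicates 1 and 3, and 11 in the fit to 6 libraries alone. Without control replicate 2, 3 were called in rescue against mutant. DESeq2 called 30, 9 and 32 of the Cyp genes in the 3 comparisons. The median log2 fold changes of the tested Cyp genes in these comparisons were 0.35, -0.05 and 0.22, beside -0.03, -0.003 and -0.03 for all tested genes. Cyp12d1-p measured 5.12, 2.83 and 0.990 CPM in the control libraries, 51.5, 43.7 and 47.5 in the mutant libraries and 5.37, 2.97 and 2.40 in the rescue libraries, with a rise of 4.0 ± 0.53 (edgeR adjusted p = 0.00257) on the log2 scale in mutant against control and a change of -3.72 ± 0.52 in rescue against mutant (edgeR adjusted p = 0.0141). Reads of Cyp12d1-p and its close copy Cyp12d1-d may be assigned to either, so this value is uncertain. Of 34 tested glutathione transferase genes, 5 rose and 2 fell in mutant against control, 0 changed in rescue against mutant, and 6 rose and 2 fell in rescue against control. Without mutant replicate 1 or 3, 2 and 1 glutathione transferase genes were called in mutant against control, and 4 in rescue against control without rescue replicate 2 or 3. In rescue against mutant, DESeq2 called 4 of them (1 higher and 3 lower), 8 of the 18 alternatives called at least 1, and leaving out rescue replicate 2 gave 1. Among 7 genes of efflux pumps, which can carry conjugates out of cells, MRP rose in mutant against control (1.06 ± 0.17, edgeR adjusted p = 0.00716), and 2 of the 7, with MRP among them, rose in rescue against control. Of 8 tested genes listed as regulators of the xenobiotic response or of metabolism, only srl was called in mutant against control. This gene, which encodes a coactivator of the PGC-1 type known for energy metabolism, fell (-1.05 ± 0.22, edgeR adjusted p = 0.0203). The call was lost without mutant replicate 1 or 3 and in the fit to 6 libraries with the replicate block. cnc, which encodes the transcription factor of the Nrf2 type that switches on detoxification genes, measured 0.19 ± 0.15 (edgeR adjusted p = 0.482). The 2 tested sulfotransferase genes, and CG15117 of glucuronide hydrolysis, were not called in any comparison, although CG15117 was called lower in both comparisons with control without control replicate 1.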

How the data were processed

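Counts per gene of 9 libraries were used as the authors deposited them: whole numbers, not normalized, with group and replicate number from the sample titles. TopHat2 2.0.11 and HTSeq are the tools and dm3 the build in the submitters' processing notes, and per the labels' protocols the libraries were made with a stranded kit from 500 ng of total RNA and read over 100 bases from both ends. The strand setting and overlap mode of counting are not given in the sources used here. The files' 5 summary lines without a gene were dropped. Of all counted alignments, 14.6% to 22.9% were at more than 1 place and in no gene count, so similar stretches of neighbouring Ugt genes may be under-counted. This share was 14.6% to 16.5% in control, 15.8% to 22.9% in mutant and 18.4% to 19.5% in rescue libraries. Its effect on the comparisons was not tested.

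Symbols came from a table of FlyBase names (15002 of 15682 identifiers matched), and arms, gene order and exon lengths from Ensembl release 115 (BDGP6, another build than dm3), so no coordinates are given. Levels are CPM, counts per 1000000 gene counts after TMM scaling. The filter on low counts was edgeR's filterByExpr (10 counts, 15 in total), and 10088 genes, 31 of 35 Ugt genes among them, passed it. The 6 called Ugt genes had at least 55 counts in every library. edgeR 4.0.16 in R 4.3.3 fitted a mean per group to all 9 libraries with its quasi-likelihood test, and SEs were derived from its F statistic. The fit was tested on simulated data. Alternatives were other scalings, other filters, DESeq2 1.42.0, a replicate block, 6 libraries only and leaving out each library. A block with 6 libraries only was added after seeing the data.

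To see whether replicate numbers pair libraries, deviations from the group mean were correlated. Same-numbered control and mutant libraries gave 0.204, 0.176 and 0.17, and were read as pairs. For mutant and rescue the values were 0.0963, 0.0726 and -0.237, and for control and rescue 0.0237, 0.25 and 0.0304. The main fit used no pairing in any comparison, while the alternatives with a replicate block grouped libraries by number. All Ugt genes are accounted for, and values per library are given for those past the threshold in any comparison and for the 10 of highest mean CPM, and those given for other genes were chosen after their values were seen. Members and lists were chosen with earlier results of these data known. No replicates of a group were alike within sampling noise (chi-square over degrees of freedom of at least 124). A planned motif search and comparison of proteins were not run. Limits for counts of 0 cover counting error only. Listed genes without a match in the tables, such as the progenitor genes esg and Dl, were not analysed here.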

Additional observations from a re-analysis of the deposited data

How the results depend on the processing

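Calls of Ugt37B1, Ugt37C2 and Ugt37E1 in mutant against control, and of Ugt37B1, Ugt37C2 and Ugt37A1 in rescue against control, were kept under all 18 alternatives. Of 702 values recomputed for single genes, from the 6 called Ugt genes and 7 others, 645 kept direction and side of the threshold, 22 lost and 27 gained a call, and 8 changed sign, all when 1 library was left out and none of them called. With 1 library left out, the log2 fold change of Ugt301D1 ran from -0.065 to 2.40 in mutant against control and from -2.03 to 0.44 in rescue against control. In rescue against mutant it ran from -0.0070 to 0.11 for Ugt37B1, from -0.10 to 0.27 for Ugt37C2 and from -0.16 to 0.055 for Ugt302C1, and in rescue against control from -0.29 to 0.15 for Ugt49B1. DESeq2 called 1358, 122 and 1721 genes in the 3 comparisons (mutant against control, rescue against mutant, rescue against control). Its numbers of Ugt genes were 4 higher and 3 lower in mutant against control, 2 lower in rescue against mutant, and 4 higher and 7 lower in rescue against control. With only the 6 libraries compared, 416 genes were called in the first and 494 in the last comparison, and 3 Ugt genes were lower in the second. With the replicate block, 2 Ugt genes were higher in mutant against control and 0 lower in rescue against mutant, where Ugt37A1 was no longer called (edgeR adjusted p = 0.0622). With the block and 6 libraries, 379 and 479 genes were called in the first and last comparisons, and 3 Ugt genes were lower in the second, while the block moved no other count of Ugt genes by over 1.5 times. The numbers do not pair rescue libraries with the others, as not every library correlated best with its own number. With library totals alone 3 Ugt genes were higher in mutant against control. Leaving out 1 library gave 329 to 758 genes in the first comparison, with 1 to 2 Ugt genes higher and 2 to 4 lower. It gave 21 to 71 genes in the second, with 0 to 3 Ugt genes lower, and 360 to 974 in the last, with 1 to 2 higher and 2 to 6 lower. The cause of these shifts was not tested.

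No Ugt gene was higher in rescue against mutant under any alternative. Other scalings moved the median of all genes by less than 0.04 on the log2 scale. Joining neighbours with at most 0 or 10 other genes between them put 22 and 23 Ugt genes into clusters, and the 10 highest genes per exon kilobase were the 10 highest by CPM. Exon lengths come from another annotation than the counts, and the 5 tested Ugt genes with fewer than 1 CPM per kilobase have little depth.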
